A study of Mus musculus with 22 samples.

Results

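The homeobox, paired-box and T-box developmental factors are transcription factor genes that lay out the embryo. They were taken here as 52 mouse genes of 14 families (Pax, sine oculis, Lhx, En, Nkx, Tbx, Barx, Meox, Meis, Pitx, Msx, Dlx, Irx and Otx), matched by gene symbol among the 48440 genes of the count table. Of the 52, 48 had enough counts to be tested and are called the tested members below. The other 4, Pax8, Six3, Nkx2-5 and Nkx3-2, stayed at or below 2.62 CPM (counts scaled by library size) in every library and are described only by their levels.

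The study sequenced RNA of 22 frozen tumours from mice with 3 genotypes. In 6 libraries, labelled SS18-SSX+/-, the tumour carried the fusion oncogene of synovial sarcoma. Tumours labelled SNF5-/- lacked Smarcb1, also known as Snf5, whose protein is part of the SWI/SNF chromatin remodelling complex (8 libraries, called Snf5-null). Tumours labelled with both lesions are called combined (8 libraries). Cre recombinase came either from Myf5Cre, expressed from the Myf5 gene of muscle progenitors, or from TATCre, a Cre protein that enters cells by itself. The 6 groups were SS18-SSX with Myf5Cre (N381, N428, N460), SS18-SSX with no Cre stated (A, B, N2), Snf5-null with TATCre (N1, N49, N43L, N43R, N51), Snf5-null with Myf5Cre (N30, N31, N33), combined with TATCre (N49, 78774, 78777, 78780) and combined with Myf5Cre (N1, N2, N3, N4). The SS18-SSX libraries have other number series in their descriptions than the Snf5-null and combined libraries, so number series and a difference from SS18-SSX tumours cannot be told apart. No SS18-SSX library is labelled TATCre, so comparisons with SS18-SSX tumours also set unlike Cre labels against each other. The strain label is C57BL/6 on the first library and its number then rises by 1 from library to library, so it was not used, and no age was used. The labels do not say that each library came from a separate animal, and N43L and N43R share a tag, so a p-value measures only spread among these libraries, part of which may be technical.

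Homeobox genes encode proteins with a DNA-binding homeodomain. The Pax proteins bind through a paired domain, which some of them combine with a homeodomain, and the T-box proteins through the T-box domain. Each gene is normally active in a restricted part of the embryo, such as a segment of the neural tube, a pharyngeal arch, a limb bud or a somite, and many of their promoters are held silent elsewhere by Polycomb complexes, which SWI/SNF complexes are known to oppose.

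Total counts per library ran from 8642648 to 25177722 for SS18-SSX, from 16059420 to 21807838 for Snf5-null and from 14834030 to 18062578 for combined tumours. Smarcb1 followed the labels, with a median of 79.7 CPM in SS18-SSX, 14.6 in Snf5-null and 2.56 in combined tumours, and with no overlap between genotypes. Tle1, a marker used for synovial sarcoma, had medians of 266, 40.9 and 186 CPM in the same order. Summed over 8 leucocyte markers, the level was 1456 to 6180 CPM in Snf5-null, 58.4 to 447 in combined and 60.8 to 469 in SS18-SSX libraries. Of these markers 7 of 8 were lower in combined than Snf5-null tumours and 6 of 8 were higher in Snf5-null than in SS18-SSX tumours, and none was at 0 throughout a group. Summed over 7 epithelial markers, SS18-SSX libraries read 25.2 to 116 CPM, Snf5-null libraries 4.81 to 31 and combined libraries 1.54 to 52.8. Summed over 7 skeletal muscle markers, SS18-SSX libraries A and N381 read 6617 and 3068 CPM and the other SS18-SSX libraries 2.06 to 173. Snf5-null libraries read 90.1 to 15624.5 CPM and combined libraries 158 to 1461. Of these muscle markers, 3 of 7 were lower in combined than Snf5-null tumours. In bulk tumours, fewer cells of a type and less RNA per cell cannot be told apart, and the part of other cells in the results below was not tested.

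Many of these factors were lower in Snf5-null tumours than in tumours that carried SS18-SSX. In combined against Snf5-null tumours 28 of 48 tested members were higher and 1, the homeobox gene En1, was lower (edgeR quasi-likelihood test, adjusted p below 0.05). Over all 18929 tested genes 29.1% were higher and 20.5% lower. In Snf5-null against SS18-SSX tumours 35 members were lower and 3 higher (Meox1, Meox2 and Six4), beside 25.9% lower and 22.3% higher over all genes. Combined tumours stood closer to SS18-SSX tumours, with 17 members lower and 5 higher (Meox2, Lhx3, Barx1, Six2 and Six4), beside 21.9% lower and 23.1% higher over all genes.

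The median log2 fold change of the tested members was 2.49 in combined against Snf5-null tumours, 2.46 where a group with no counts was set at 3 counts over the group, beside 0.23 over all genes. It was -1.24 in combined against SS18-SSX tumours (-0.09 over all genes) and -3.72 in Snf5-null against SS18-SSX tumours (-0.06 over all genes). The comparisons share their groups, so their counts do not bear on each other independently. Across the 3 comparisons, 16 members were lower in Snf5-null than in both other genotypes with no call between combined and SS18-SSX tumours. A further 10 were called lower in Snf5-null than in both other genotypes and lower in combined than in SS18-SSX tumours. For Meis2 and Msx2 among them, the combined value averages unlike Cre groups, which are described below. Another 5 were lower than in SS18-SSX in both other genotypes with no call between those. A further 6 (Dlx2, Lhx8, Pax1, Tbx4, Tbx15 and Tbx18) were called in none of the 3. The shares of all genes with these patterns were not computed, so the pattern counts are a description only.

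**Figure D1:**
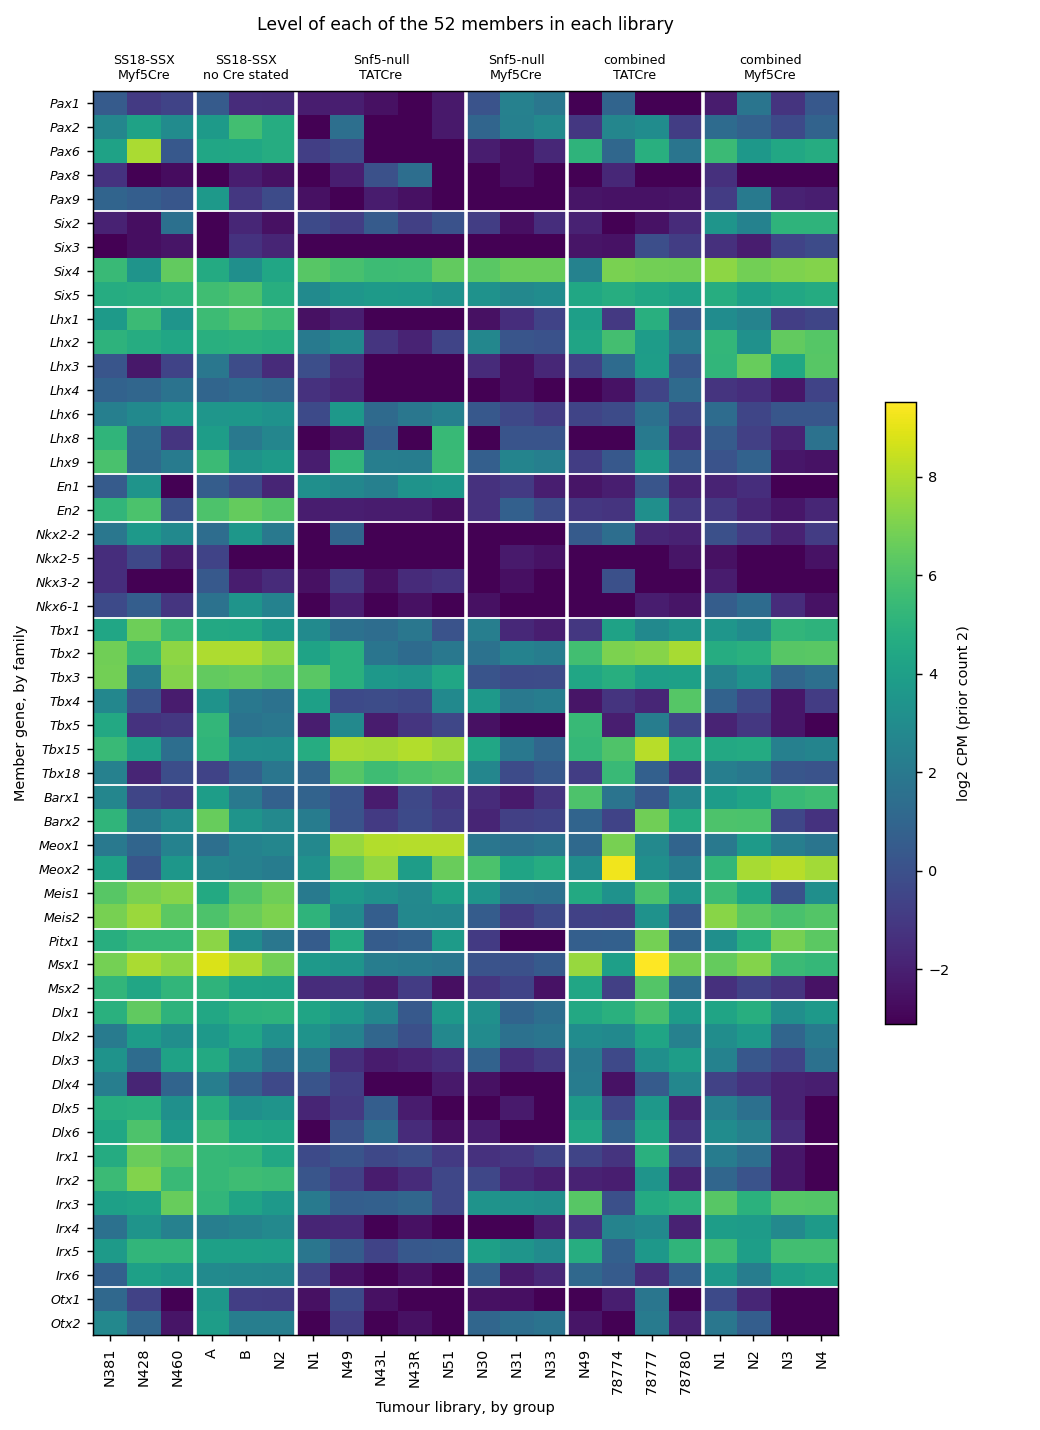
Level of each of the 52 members (rows, by family) in each of the 22 libraries (columns, by group), as log2 CPM with a prior count of 2, where dark is low and yellow is high. The Snf5-null columns are dark for most Pax, Lhx, Nkx, Msx, Dlx and Irx rows, while Meox1, Tbx15 and Tbx18 are bright in 4 of the 5 Snf5-null TATCre libraries.

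**Figure D2:**
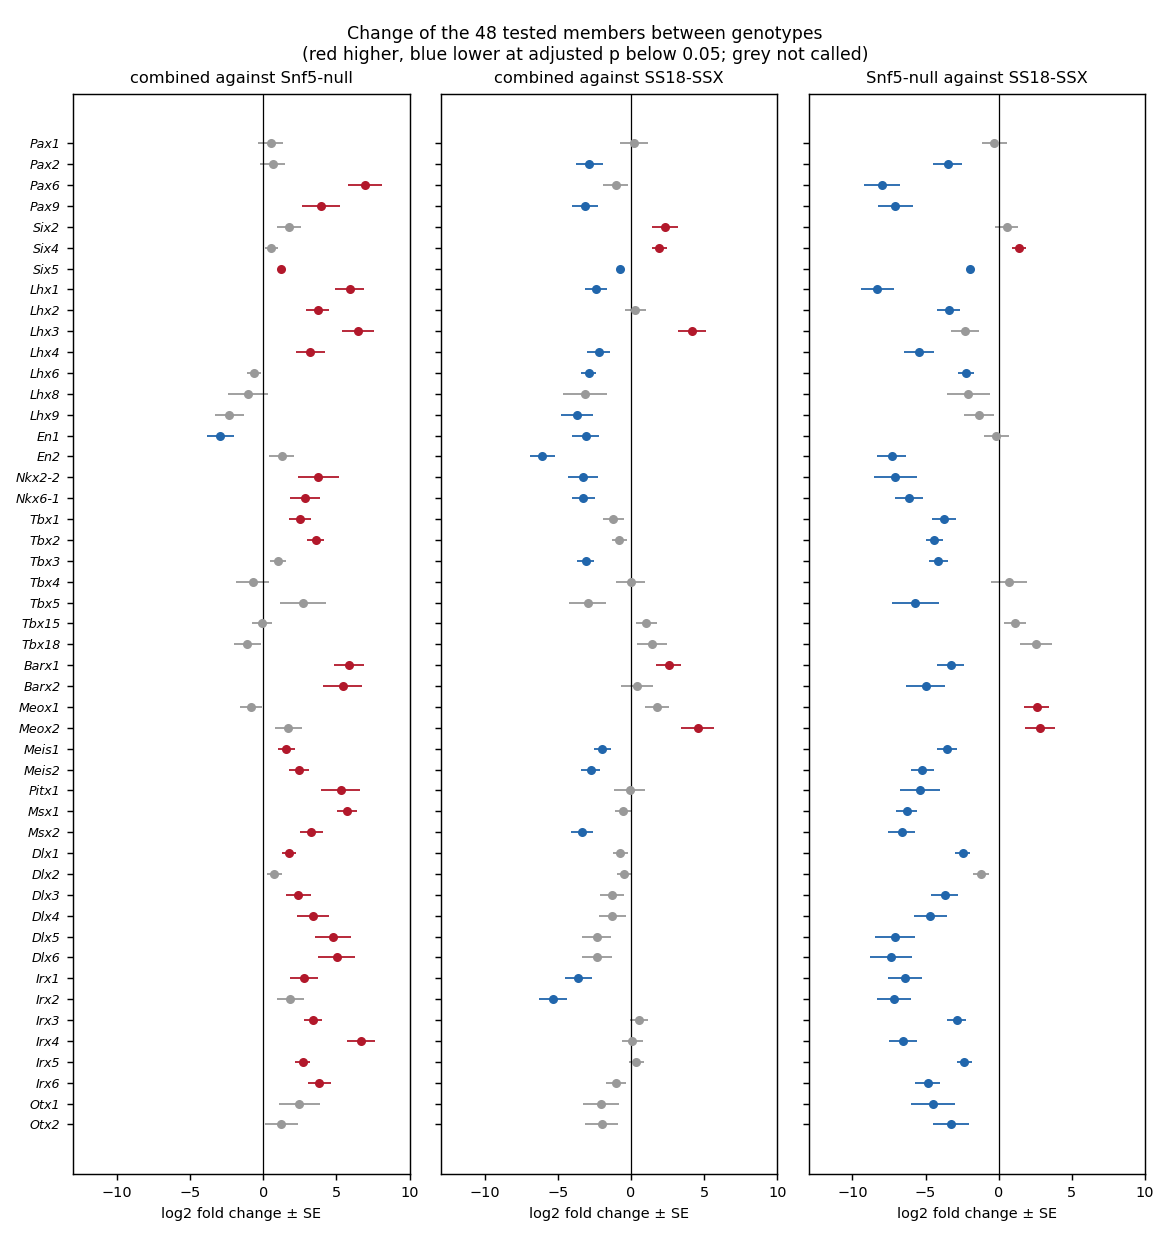
Log2 fold change (point) and its standard error (bar) of the 48 tested members in the 3 genotype comparisons, red for higher, blue for lower and grey for no call. Calls are red for 28 members and blue for 1 in combined against Snf5-null tumours, and blue for 35 and red for 3 in Snf5-null against SS18-SSX tumours.

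The Lhx genes encode LIM-homeodomain proteins, which specify neurons and limb and kidney precursors. Of 7 tested, 4 were higher in combined than Snf5-null tumours (Lhx1, Lhx2, Lhx3 and Lhx4). Lhx1 (ENSMUSG00000018698, GRCm38 chr11:84518284-84525535, minus strand), needed for head and kidney formation, read 13.5, 44.1 and 10.9 CPM in SS18-SSX Myf5Cre libraries and 46.5, 63.6 and 45.7 in those with no Cre stated. It read 0.0581, 0.127, 0, 0 and 0 CPM in Snf5-null TATCre and 0.0565, 0.249 and 0.563 in Snf5-null Myf5Cre libraries. In combined tumours it read 16.2, 0.37, 28.4 and 1.28 CPM with TATCre and 8.07, 5.6, 0.466 and 0.606 with Myf5Cre. All SS18-SSX libraries were thus above all Snf5-null ones, and the combined libraries spread over a wide range that touched both. Lhx1 differed by 5.90 ± 1.02 (log2, SE) between combined and Snf5-null tumours (edgeR adjusted p = 0.000149) and by -8.29 ± 1.13 between Snf5-null and SS18-SSX tumours (edgeR adjusted p = 1.63e-05). It was -2.39 ± 0.77 in combined against SS18-SSX tumours (edgeR adjusted p = 0.0174), and -1.94 with adjusted p = 0.0573 without SS18-SSX Myf5Cre library N428 and -2.73 with adjusted p = 0.0582 with the Myf5Cre libraries alone.

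Lhx3, a factor of motor neurons and the pituitary, was the member with the clearest excess in combined tumours. It read 36, 95.5, 21 and 74.2 CPM in the Myf5Cre and 0.513, 2.34, 15 and 1.13 in the TATCre combined libraries. In SS18-SSX libraries it ran from 0.087 to 3.61 CPM with a median of 0.661, and in Snf5-null libraries from 0 to 0.814 with a median of 0.119. The 4 combined Myf5Cre libraries lay above every library of the other genotypes, whereas 3 of the 4 combined TATCre libraries lay within the SS18-SSX range. Lhx3 was higher by 6.47 ± 1.08 than in Snf5-null tumours (edgeR adjusted p = 0.000113) and by 4.17 ± 0.99 than in SS18-SSX tumours (edgeR adjusted p = 0.00255). With the TATCre libraries alone its difference from Snf5-null was 4.39 with adjusted p = 0.0596.

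Lhx2, of the eye, limb and hair follicle, had medians of 28.4 CPM in SS18-SSX, 0.991 in Snf5-null and 28.7 in combined tumours. Lhx6, of cortical interneurons and jaw, followed another course, with every combined library (0.586 to 2.75 CPM) below every SS18-SSX library (4.96 to 11.8). It differed by -2.89 ± 0.53 between these genotypes (edgeR adjusted p = 0.00038). Lhx9, of the gonad and limb, read 58.2, 2.26, 4.22, 44.5, 10.2 and 13.3 CPM in the SS18-SSX and 0.439, 1.17, 13.6, 1.2, 0.962, 1.69, 0.0776 and 0.0606 in the combined libraries. These ranges overlapped each other and that of the Snf5-null libraries (0.116 to 45.3 CPM). Lhx9 was lower by -3.69 ± 1.07 in combined than in SS18-SSX tumours (edgeR adjusted p = 0.00936), but -2.36 with adjusted p = 0.0688 without SS18-SSX Myf5Cre library N381. Lhx8 ran from 0 to 41.2 CPM within Snf5-null tumours alone and was not called.

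Of 4 Pax genes tested, 2 (Pax6 and Pax9) were higher in combined than Snf5-null tumours, and 3 were lower in Snf5-null than in SS18-SSX tumours. Pax6, a factor of the eye and forebrain, read 17.9, 237 and 1.18 CPM in SS18-SSX Myf5Cre and 20.7, 21.4 and 25.7 in the other SS18-SSX libraries. In Snf5-null libraries it read 0.465, 0.76, 0, 0 and 0 CPM with TATCre and 0.113, 0.0498 and 0.188 with Myf5Cre. The combined libraries read 34.2, 2.03, 28.5 and 3.3 CPM with TATCre and 45.2, 12, 22.1 and 25.9 with Myf5Cre. Every combined and every SS18-SSX library was above every Snf5-null one, and the combined and SS18-SSX ranges overlapped. Pax6 was higher by 6.96 ± 1.17 in combined than Snf5-null tumours (edgeR adjusted p = 0.000117), with no call against SS18-SSX tumours (-1.05 ± 0.84).

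Pax2, a kidney and midbrain factor, was lower than in SS18-SSX tumours (6.35 to 51.1 CPM, median 15.8) in both other genotypes. It differed by -2.85 ± 0.93 in combined tumours (edgeR adjusted p = 0.0181) and by -3.50 ± 0.996 in Snf5-null tumours (edgeR adjusted p = 0.00746). Within Snf5-null tumours Pax2 read 0, 2.66, 0, 0 and 0.0976 CPM with TATCre and 1.86, 5.03 and 6.94 with Myf5Cre. Library N49 thus stood apart from the other TATCre libraries, and without it the difference of Snf5-null from SS18-SSX tumours was -5.52. With the Myf5Cre libraries alone that difference of Pax2 was -1.19 (adjusted p = 0.166). Pax9, of the pharyngeal pouches and teeth, was at 0 in all 3 Snf5-null Myf5Cre libraries and at most 0.11 CPM in the TATCre ones, beside 0.356 to 12.9 CPM in SS18-SSX tumours. Pax9 lay at 0.0584 to 4.09 CPM in combined tumours and was below SS18-SSX there by -3.12 ± 0.88 (edgeR adjusted p = 0.00909), or -1.59 with adjusted p = 0.105 without SS18-SSX library A and -0.43 with adjusted p = 0.781 with the Myf5Cre libraries alone. Pax8 reached 2.62 CPM in Snf5-null TATCre library N43R and had a median under 0.05 CPM in each genotype.

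Msx1 and Msx2 are targets of BMP signalling and act in limb, tooth and skull development. Msx1 (ENSMUSG00000048450, chr5:37820485-37824583, minus strand) read 115, 237 and 164 CPM in SS18-SSX Myf5Cre and 443, 239 and 115 in the other SS18-SSX libraries. In Snf5-null libraries it read 13.1, 10.4, 4.52, 4.15 and 3.46 CPM with TATCre and 0.96, 0.896 and 1.25 with Myf5Cre. It was back at 188, 15.9, 728 and 114 CPM in combined TATCre and 92.3, 141, 44.9 and 39.6 in combined Myf5Cre libraries. No Snf5-null library reached the lowest library of the other genotypes. Msx1 differed by 5.73 ± 0.69 between combined and Snf5-null tumours (edgeR adjusted p = 4.15e-06) and by -0.57 ± 0.55 between combined and SS18-SSX tumours, which was not called. Msx2 fell likewise from 17.8 to 36.6 CPM in SS18-SSX to 0.0488 to 0.547 in Snf5-null tumours (-6.64 ± 0.91, edgeR adjusted p = 1.75e-05), but its level in combined tumours went with the Cre label and is described with it below.

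**Figure D3:**
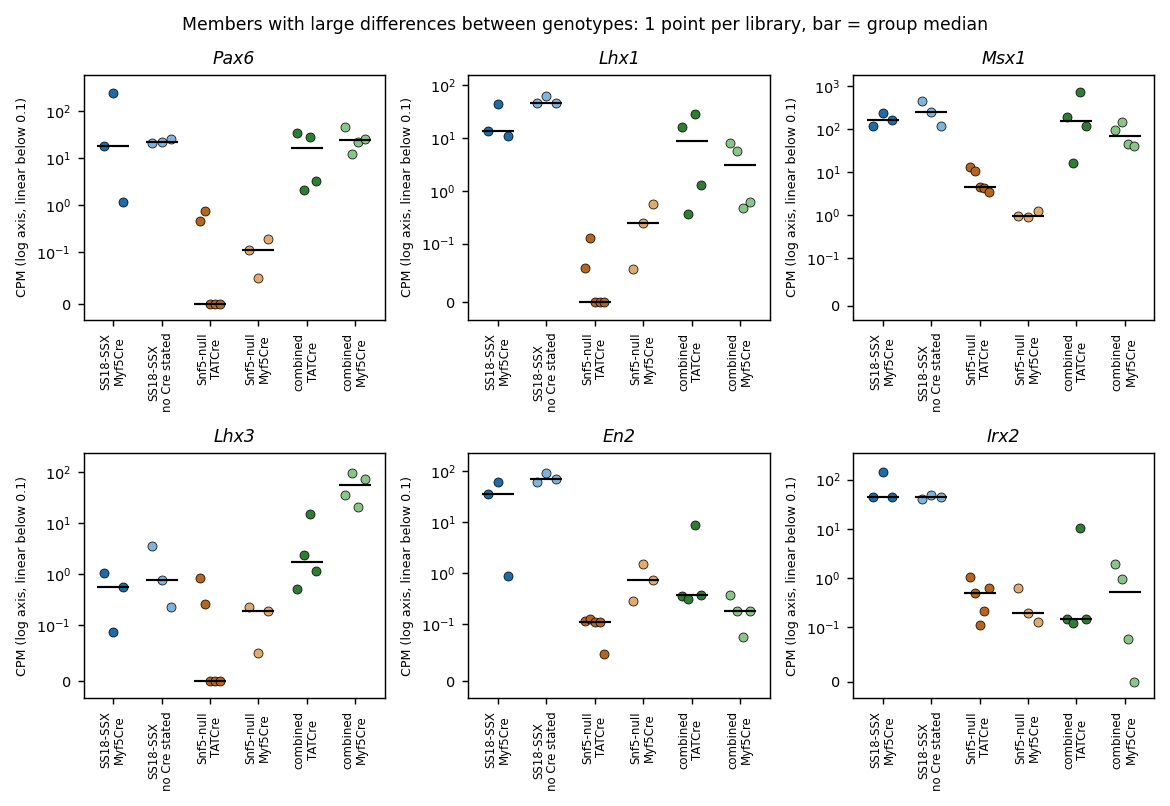
CPM of Pax6, Lhx1, Msx1, Lhx3, En2 and Irx2 in each library (points) with the group median (bar), on a log axis that is linear below 0.1 CPM. Pax6, Lhx1 and Msx1 have their lowest group medians in the 2 Snf5-null groups, Lhx3 is highest in combined Myf5Cre libraries, and En2 and Irx2 are high in SS18-SSX libraries, with combined TATCre library 78777 above its group.

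The Barx, Pitx and Dlx genes pattern the jaw, teeth and limbs. Barx1 and Barx2 were both higher in combined than Snf5-null tumours. Barx1 read 63.3, 3.21, 1.17 and 6.08 CPM in combined TATCre and 14.3, 18.8, 41.9 and 48.1 in combined Myf5Cre libraries, against 0.0995 to 1.74 CPM in Snf5-null (median 0.327) and 0.404 to 14.7 in SS18-SSX tumours (median 2.72). The combined Myf5Cre libraries lay above the Snf5-null ones without overlap, and combined TATCre library 78777 lay within the Snf5-null range. Barx1 was higher by 5.86 ± 1.01 than in Snf5-null tumours (edgeR adjusted p = 0.000155). Its excess over SS18-SSX tumours, 2.57 ± 0.88 (edgeR adjusted p = 0.024), was 1.42 with adjusted p = 0.103 without combined TATCre library N49, and had adjusted p = 0.0509, 0.0542 and 0.0542 without SS18-SSX libraries N428, B and N2. Below SS18-SSX in Snf5-null tumours by -3.30 ± 0.92 (edgeR adjusted p = 0.00662), Barx1 gave -2.04 with adjusted p = 0.0664 without SS18-SSX library N381.

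Pitx1, which marks the hindlimb, read 27.8, 40.8, 40.3, 158, 7.96 and 3.63 CPM in SS18-SSX libraries. It read 1.34, 24.1, 1.38, 1.64 and 13.7 CPM in Snf5-null TATCre and 0.395, 0 and 0 in Snf5-null Myf5Cre libraries. In combined libraries it was 1.54, 1.54, 117 and 1.8 CPM with TATCre and 8.88, 26.7, 121 and 78.9 with Myf5Cre. The TATCre groups of both genotypes thus overlapped, while the Myf5Cre groups did not. Pitx1 was higher by 5.30 ± 1.34 in combined than Snf5-null tumours (edgeR adjusted p = 0.00363), 3.18 without combined TATCre library 78777, and 1.77 with adjusted p = 0.399 with the TATCre libraries alone. In a model of the 3 genotypes it was 2.92 with adjusted p = 0.0515.

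Of 6 Dlx genes, 5 were higher in combined than Snf5-null tumours and the same number were lower in Snf5-null than in SS18-SSX tumours, while none was called between combined and SS18-SSX tumours. Dlx5 and Dlx6, neighbours on chromosome 6 whose starts are 18751 bp apart, followed each other across libraries. Dlx5 read 27.9, 30 and 9.33 CPM in SS18-SSX Myf5Cre and 27.2, 8.73 and 10.4 in the other SS18-SSX libraries. It read 0.174, 0.38, 1.43, 0.109 and 0 CPM in Snf5-null TATCre, 0, 0.0995 and 0 in Snf5-null Myf5Cre, 13.3, 0.617, 12.3 and 0.15 in combined TATCre and 5.13, 2.83, 0.155 and 0 in combined Myf5Cre libraries. Every SS18-SSX library was above every Snf5-null one, and combined libraries divided into some near the SS18-SSX level and some near 0. Dlx6 read 21, 62, 12.6, 46, 20.8 and 19.3 CPM in SS18-SSX libraries and at most 2.64 in Snf5-null ones. In the combined libraries Dlx6 read 20.3, 1.6, 19.2 and 0.3 CPM with TATCre and 8.07, 5.3, 0.233 and 0 with Myf5Cre. The same 4 combined libraries (TATCre N49 and 78777, Myf5Cre N1 and N2) were the highest for both genes. The difference of Snf5-null from SS18-SSX tumours was -7.10 ± 1.35 for Dlx5 (edgeR adjusted p = 0.000336) and -7.36 ± 1.43 for Dlx6 (edgeR adjusted p = 0.000406), and that of combined from Snf5-null tumours 4.76 ± 1.21 and 5.01 ± 1.29 (edgeR adjusted p = 0.00377 and 0.00396). With the TATCre libraries alone these last differences had adjusted p = 0.078 and 0.0995. The opposite-strand gene Dlx6os1 had 4882 counts over all libraries beside 4249 for Dlx6, but its annotated exons do not overlap those of Dlx6. Dlx6os2, whose exons do, had 39 counts. Dlx4os, on the opposite strand with exons that overlap those of Dlx4, had 550 counts beside 448 for Dlx4. The sources used here do not say whether counting used the strand, so the Dlx4 level is uncertain.

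The Irx genes, 6 Iroquois homeobox factors that act in neural, heart and limb patterning, were all lower in Snf5-null than in SS18-SSX tumours. They parted in combined tumours, where Irx3, Irx4, Irx5 and Irx6 showed no call against SS18-SSX tumours and Irx1 and Irx2 were lower. Irx4 read 2.88, 10.5 and 5.36 CPM in SS18-SSX Myf5Cre and 4.7, 5.7 and 6.86 in the other SS18-SSX libraries, and 0.293, 5.73, 7.19 and 0.15 in combined TATCre and 14.8, 14.1, 7.06 and 13.6 in combined Myf5Cre libraries. It read 0.174, 0.19, 0, 0.0546 and 0 CPM in Snf5-null TATCre and 0, 0 and 0.125 in Snf5-null Myf5Cre libraries. Only combined TATCre library 78780 among the combined libraries was within the Snf5-null range. Irx4 was higher by 6.67 ± 0.96 in combined than Snf5-null tumours (edgeR adjusted p = 2.56e-05). Irx3 had medians of 18.5 CPM in SS18-SSX, 3.05 in Snf5-null and 51 in combined tumours, and Irx5 had medians of 16.4, 2.38 and 30.8 CPM.

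Irx2 (ENSMUSG00000001504, chr13:72628820-72634198, plus strand) read 44, 140 and 44 CPM in SS18-SSX Myf5Cre and 40.2, 48.7 and 44.7 in the other SS18-SSX libraries. It read 1.05, 0.507, 0.11, 0.219 and 0.634 CPM in Snf5-null TATCre and 0.621, 0.199 and 0.125 in Snf5-null Myf5Cre libraries. In combined libraries it was 0.146, 0.123, 10.5 and 0.15 CPM with TATCre and 1.92, 0.963, 0.0776 and 0 with Myf5Cre. SS18-SSX libraries thus lay above both other genotypes without overlap, and library 78777 was the highest of the rest. Irx2 was lower by -5.32 ± 0.96 in combined (edgeR adjusted p = 0.000319) and by -7.17 ± 1.15 in Snf5-null tumours (edgeR adjusted p = 7.05e-05) than in SS18-SSX tumours. Irx1 read 0.586, 0.308, 29.5 and 0.676 CPM in combined TATCre and 4.38, 2.65, 0.0776 and 0 in combined Myf5Cre libraries, against 22.1 to 99.6 CPM in SS18-SSX (median 38.6) and 0.282 to 1.01 in Snf5-null tumours (median 0.612). Library 78777 was alone among combined libraries in reaching the SS18-SSX range. Without it, the difference of Irx1 from SS18-SSX tumours moved from -3.62 ± 0.92 (edgeR adjusted p = 0.00425) to -5.56, and that from Snf5-null tumours from 2.80 ± 0.95 (edgeR adjusted p = 0.0205) to 0.86 with adjusted p = 0.312. That last call of Irx1 also ended when N30, N31 or N33 of Snf5-null Myf5Cre, or N1 of combined Myf5Cre, was left out (2.53, 2.58, 2.78 and 2.15), and it was 2.05 with adjusted p = 0.24 with the Myf5Cre and 3.35 with adjusted p = 0.086 with the TATCre libraries alone.

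En1 and En2 are the Engrailed factors of the midbrain and limb. En2 (ENSMUSG00000039095, chr5:28165694-28172166, plus strand) read 36.1, 61.2 and 0.881 CPM in SS18-SSX Myf5Cre and 62, 90.9 and 68.9 in the other SS18-SSX libraries. It read 0.116, 0.127, 0.11, 0.109 and 0.0488 CPM in Snf5-null TATCre and 0.282, 1.54 and 0.75 in Snf5-null Myf5Cre libraries, and 0.366, 0.308, 8.76, 0.376, 0.374, 0.181, 0.0776 and 0.182 in the combined libraries in the order given above. SS18-SSX library N460 fell within the range of the other genotypes, and the remaining 5 lay above it. En2 was lower by -6.07 ± 0.86 in combined (edgeR adjusted p = 5.51e-05) and by -7.32 ± 0.99 in Snf5-null than in SS18-SSX tumours (edgeR adjusted p = 1.54e-05). En1 was the member lower in combined than Snf5-null tumours (-2.93 ± 0.91, edgeR adjusted p = 0.013). Its level was in the Snf5-null TATCre libraries, at 9.01, 6.46, 5.12, 10.1 and 11.5 CPM, against 0.282, 0.398 and 0.125 in the Myf5Cre ones, at most 1.05 in combined and 0 to 10.4 in SS18-SSX libraries. The Snf5-null Myf5Cre libraries of En1 overlapped the combined ones. Against SS18-SSX tumours En1 was lower in combined tumours by -3.09 ± 0.92 (edgeR adjusted p = 0.011), or -1.77 with adjusted p = 0.0956 without SS18-SSX Myf5Cre library N428.

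Nkx2-2 and Nkx6-1 pattern the ventral neural tube and the pancreas. Nkx2-2 read 3.57, 13.1, 7.12, 2.51, 11.7 and 3.86 CPM in SS18-SSX libraries and 0 in every Snf5-null library except TATCre library N49, at 1.9 CPM. In combined libraries it read 1.32, 2.59, 0.175 and 0.15 CPM with TATCre and 0.855, 0.421, 0.155 and 0.424 with Myf5Cre. These levels were low, and N49 lay within the combined range. The fitted difference of Nkx2-2 in combined against Snf5-null tumours, 3.78 ± 1.38 (edgeR adjusted p = 0.0319), rests on a group at 0 and so depends on the prior count. With that group at 3 counts the difference of mean log2 levels was 2.42, and without N49 the fitted one was 6.68. The call was lost in a model of the 3 genotypes (1.60, adjusted p = 0.225) and in 6 of 22 fits that each left out 1 library, those without Snf5-null Myf5Cre N30, N31 or N33, combined TATCre 78774 and combined Myf5Cre N1 or N4. Nkx6-1 ran from 0.331 to 10.6 CPM in SS18-SSX tumours, 0 to 0.127 in Snf5-null tumours and 0 to 2.35 in combined tumours. The heart factor Nkx2-5 and the joint factor Nkx3-2 reached at most 0.652 and 1.2 CPM.

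Otx1 and Otx2, of the forebrain and midbrain, were lower in Snf5-null than in SS18-SSX tumours, with no call between combined tumours and either. Otx2 read 6.7, 1.96, 0.0735, 15.1, 4.81 and 4.76 CPM in SS18-SSX, 0, 0.443, 0, 0.0546 and 0 in Snf5-null TATCre and 1.98, 2.64 and 3.06 in Snf5-null Myf5Cre libraries. It read 0.0732, 0, 4.26 and 0.15 CPM in combined TATCre and 3.64, 1.44, 0 and 0 in combined Myf5Cre libraries. All genotypes overlapped. Otx2 was lower by -3.26 ± 1.26 in Snf5-null than in SS18-SSX tumours (edgeR adjusted p = 0.0393), and this call was lost in 12 of 22 fits that each left out 1 library, with differences of -4.42 to -2.38 over the 22. The fits that kept it were those without SS18-SSX N460, Snf5-null TATCre N49 or 1 of the 8 combined libraries. With the Myf5Cre libraries alone the difference was -0.20 (adjusted p = 0.932).

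The T-box factors act in heart, limb and pharyngeal development. Tbx2 had medians of 163 CPM in SS18-SSX, 4.16 in Snf5-null and 76.1 in combined tumours, and was higher by 3.58 ± 0.56 in combined than Snf5-null tumours (edgeR adjusted p = 6.16e-05). Tbx1, a gene of the pharyngeal arches, had medians of 22.2, 2.66 and 11 CPM, and its difference of 2.52 ± 0.74 between combined and Snf5-null tumours (edgeR adjusted p = 0.00911) was 4.04 without Snf5-null Myf5Cre library N30 and 1.30 with adjusted p = 0.278 with the TATCre libraries alone. Tbx3, a limb and breast factor and neighbour of Tbx5, read 112, 4.35, 145, 88.2, 95 and 79.5 CPM in SS18-SSX libraries. It read 76.8, 29.4, 12.1, 10.4 and 20.3 CPM in Snf5-null TATCre, 1.02, 0.747 and 0.75 in Snf5-null Myf5Cre, 20.5, 27.5, 15.7 and 16.7 in combined TATCre and 5.56, 10.2, 1.94 and 2.67 in combined Myf5Cre libraries. Of the SS18-SSX libraries, N428 alone fell within the lower part of the other ranges. Tbx3 was lower by -3.11 ± 0.57 in combined (edgeR adjusted p = 0.00035) and by -4.12 ± 0.63 in Snf5-null than in SS18-SSX tumours (edgeR adjusted p = 4.77e-05). In a model of the 3 genotypes without the Cre groups the latter difference was -2.08 with adjusted p = 0.0539. The opposite-strand gene Tbx3os1 had 2816 counts beside 14328 for Tbx3. Tbx15 and Tbx18, of limb and somite mesenchyme, were at 204 to 266 and 47.5 to 73.3 CPM in Snf5-null TATCre libraries other than N1, where they read 25.6 and 1.92, and they were not called between genotypes. Tbx4 and Tbx5, the hindlimb and forelimb factors, each had single high libraries among combined TATCre tumours, 72.2 CPM of Tbx4 in 78780 and 42 CPM of Tbx5 in N49.

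Meox1 and Meox2, homeobox factors of the somite and of muscle and vessel development, went the other way from most members. Meox1 read 6.63, 187, 263, 273 and 273 CPM in Snf5-null TATCre libraries and 3.45, 2.89 and 3.44 in Snf5-null Myf5Cre ones. It read 3.87, 1.87, 5.47, 2.73, 5.46 and 6.35 CPM in SS18-SSX libraries and 2.2, 122, 7.07, 1.8, 3.8, 13.5, 4.73 and 3.39 in combined ones. High levels were thus in 4 Snf5-null TATCre libraries and in combined TATCre library 78774. The call of Meox1 above SS18-SSX in Snf5-null tumours (2.58 ± 0.88, edgeR adjusted p = 0.0208) came from the TATCre libraries, as the Myf5Cre libraries alone gave -0.18 (adjusted p = 0.838). Meox2 (ENSMUSG00000036144, chr12:37108540-37179534, plus strand) read 18, 1.09, 11.8, 6.34, 5.34 and 4.37 CPM in SS18-SSX and 8.27, 604, 9, 4.51, 37.1, 230, 282 and 216 in combined libraries. In Snf5-null libraries Meox2 read 9.59, 93, 178, 14.7 and 97.3 CPM with TATCre and 61.5, 18.7 and 25.8 with Myf5Cre. The combined Myf5Cre libraries lay above all SS18-SSX ones, and 3 of the 4 combined TATCre libraries lay among them. Meox2 was higher by 4.55 ± 1.13 in combined than in SS18-SSX tumours (edgeR adjusted p = 0.00354), or 2.33 without combined TATCre library 78774. Above SS18-SSX in Snf5-null tumours by 2.83 ± 1.04 (edgeR adjusted p = 0.0318), Meox2 lost that call in 5 of 22 fits that each left out 1 library, with adjusted p from 0.0526 to 0.0563 in those without SS18-SSX N428, B or N2, Snf5-null TATCre N43L or Snf5-null Myf5Cre N30. With the Myf5Cre libraries alone it was 1.79 (adjusted p = 0.149).

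The sine oculis factors (Six2 to Six5 here) act with Eya coactivators in muscle, kidney and sense organs. Six4 had medians of 22.1 CPM in SS18-SSX, 75.6 in Snf5-null and 119 in combined tumours, with 1 low combined library (TATCre N49, 5.49 CPM). Six4 was higher by 1.93 ± 0.50 in combined (edgeR adjusted p = 0.00479) and by 1.37 ± 0.50 in Snf5-null than in SS18-SSX tumours (edgeR adjusted p = 0.0287). With the Myf5Cre libraries alone these Six4 differences were 1.41 and 0.96, with adjusted p = 0.0623 and 0.195. Six5 changed little in size but without overlap of Snf5-null (6.67 to 13.2 CPM) and combined libraries (15.8 to 26.9), at 1.21 ± 0.19 (edgeR adjusted p = 6.11e-05). Six3 had no count in any Snf5-null library and 0.0617 to 0.818 CPM in combined libraries, and its opposite-strand partner Six3os1 had 243 counts beside 59 for Six3. Meis1 and Meis2, homeobox cofactors that bind DNA with Pbx and Hox proteins, had medians of 88.7 and 109 CPM in SS18-SSX and 8.2 and 4.01 CPM in Snf5-null tumours. Meis1 had a median of 15.4 CPM in combined tumours, and its difference of 1.59 ± 0.59 from Snf5-null (edgeR adjusted p = 0.032) was 0.97 with adjusted p = 0.16 without combined Myf5Cre library N1 and was lost in 10 of 22 fits that each left out 1 library, those without any 1 of the 6 SS18-SSX libraries, Snf5-null Myf5Cre N31 or N33, combined TATCre 78777 or combined Myf5Cre N1. The SS18-SSX libraries enter this difference only through the shared fit. With each Cre label alone the Meis1 difference was 1.65 (Myf5Cre, adjusted p = 0.218) and 1.34 (TATCre, adjusted p = 0.13), and in a model of the 3 genotypes 1.31 (adjusted p = 0.0621).

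Setting Myf5Cre against TATCre within a genotype showed a few members that depended on the Cre label. Within Snf5-null tumours 6 members were called, beside 4.97% of all genes, and within combined tumours 3, beside 1.82%. The difference between these Cre effects, the interaction, was called for 4 members (Six2, Meis2, Msx2 and En2), beside 2.42% of all genes. In combined tumours, Six2 (ENSMUSG00000024134, chr17:85684277-85688274, minus strand), a factor that keeps kidney progenitors, read 10.7, 5.48, 33.8 and 34.3 CPM with Myf5Cre and 0.146, 0, 0.0584 and 0.225 with TATCre. In Snf5-null libraries it read 0.698, 0.443, 1.32, 0.492 and 0.927 CPM with TATCre and 0.452, 0.0498 and 0.25 with Myf5Cre, and in SS18-SSX libraries 0.149, 0.0435, 2.79, 0, 0.178 and 0.0567. The combined Myf5Cre libraries of Six2 stood above every other library. The Cre difference of Six2 was 7.58 ± 1.25 in combined (edgeR adjusted p = 0.00637) and -1.62 ± 1.07 in Snf5-null tumours (edgeR adjusted p = 0.441), and their difference 9.19 ± 1.68 (edgeR adjusted p = 0.0101), or 8.71 with adjusted p = 0.0529 without Snf5-null Myf5Cre library N31. The excess of Six2 over SS18-SSX tumours in the genotype comparison, 2.31 ± 0.90 (edgeR adjusted p = 0.0436), averages these unlike groups. It was 3.98 without SS18-SSX library N460 and lost its call in 9 of 22 fits that each left out 1 library, at 2.02 to 2.30 (without SS18-SSX N381, N428, A or N2, Snf5-null Myf5Cre N33, combined TATCre N49 or 78780, or combined Myf5Cre N3 or N4).

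Meis2 read 152, 79, 59.5 and 70.9 CPM in combined Myf5Cre and 0.513, 0.493, 9.93 and 1.2 in combined TATCre libraries. Its Snf5-null libraries read 34.1, 7.47, 1.43, 6.72 and 6.59 CPM with TATCre and 1.36, 0.398 and 0.688 with Myf5Cre, and its SS18-SSX libraries 120, 193, 80.5, 62.9, 97.2 and 131. The combined Myf5Cre libraries thus overlapped SS18-SSX tumours and the combined TATCre libraries overlapped Snf5-null tumours. The Cre difference of Meis2 was 4.88 ± 0.97 in combined tumours (edgeR adjusted p = 0.0176) and -3.78 ± 1.06 in Snf5-null tumours (edgeR adjusted p = 0.0464), with an interaction of 8.66 ± 1.47 (edgeR adjusted p = 0.00714). The call within Snf5-null tumours was lost in 15 of 22 fits that each left out 1 library, and the other 2 calls of Meis2 in none. Its genotype difference of 2.46 ± 0.66 from Snf5-null (edgeR adjusted p = 0.00546) was -1.95 with adjusted p = 0.226 with the TATCre libraries alone, and 1.43 without combined library 78777.

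Msx2 took the opposite course in combined tumours. It read 20.2, 0.493, 70 and 2.48 CPM with TATCre and 0.267, 0.542, 0.31 and 0.0606 with Myf5Cre, beside 0.0488 to 0.547 CPM in Snf5-null tumours. The combined Myf5Cre libraries fell in the Snf5-null range, as did 1 of the 4 TATCre libraries. Msx2 differed by -6.27 ± 1.16 between Cre labels in combined tumours (edgeR adjusted p = 0.0117), or -5.90 with adjusted p = 0.0593 without combined Myf5Cre library N4. Its interaction was -6.84 ± 1.54 (edgeR adjusted p = 0.0253), with adjusted p of 0.118, 0.0514 and 0.0552 without Snf5-null Myf5Cre N31 and combined Myf5Cre N3 and N4. The interaction of En2, -6.53 ± 1.64 (edgeR adjusted p = 0.0411), was -3.73 with adjusted p = 0.124 without combined TATCre library 78777 and lost its call in 13 of 22 fits that each left out 1 library.

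Within Snf5-null tumours, Meox1 (-5.94 ± 1.43, edgeR adjusted p = 0.0224), Tbx3 (-5.14 ± 0.98, edgeR adjusted p = 0.00776), Tbx15 and Meis2 were lower with Myf5Cre, and Irx5 and Pax1 were higher. Pax1, a factor of the vertebral sclerotome, read 0.96, 5.28 and 3.56 CPM with Myf5Cre and 0.116, 0.127, 0.0551, 0 and 0.0976 with TATCre, with no overlap (5.26 ± 1.38, edgeR adjusted p = 0.0341). In the other genotypes Pax1 ran from 0 to 3.31 CPM. The Snf5-null Myf5Cre group has 3 libraries, and each of the 6 calls was lost without N31 and without N33. Other libraries whose removal ended the Meox1 call (N30) or the Pax1 call (TATCre N49, N43L, N43R and N51) gave adjusted p from 0.0612 to 0.0814. Summed over 7 neural markers, the level was 227 to 304 CPM in Snf5-null Myf5Cre and 6.66 to 151 in Snf5-null TATCre libraries, with 1 of 7 markers called higher, and its part in these differences was not tested. Between the SS18-SSX groups none of the 48 tested members was called by edgeR or DESeq2, beside 2.11% of all genes by edgeR, and 3 had an unadjusted edgeR p below 0.05.

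**Figure D4:**
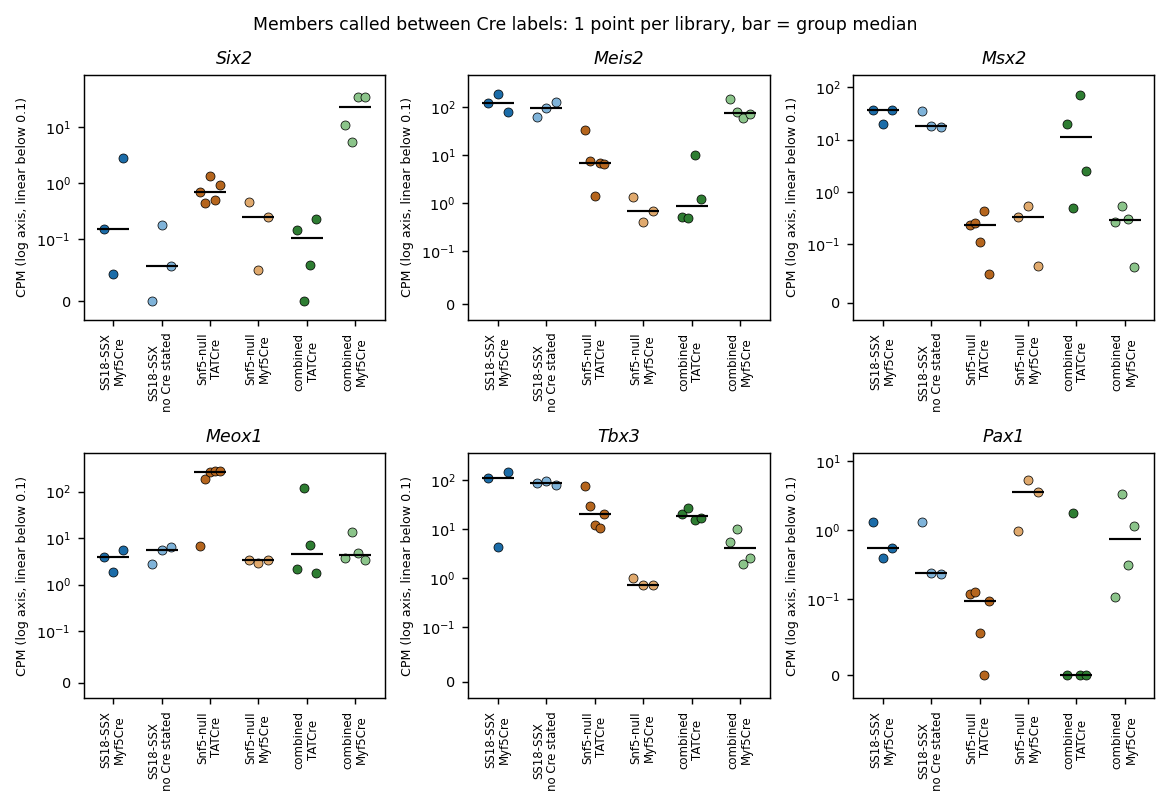
CPM of Six2, Meis2, Msx2, Meox1, Tbx3 and Pax1 in each library (points) with the group median (bar), on a log axis that is linear below 0.1 CPM. Six2 and Meis2 are higher with Myf5Cre than with TATCre in combined tumours, Msx2 is lower, and Meox1 and Tbx3 are lower and Pax1 higher with Myf5Cre in Snf5-null tumours.

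Levels per kilobase of exon rank the members against each other. By median CPM per kb within each group, Msx1 and then Tbx2 were the highest in both SS18-SSX groups, at 52.9 and 29.7 with Myf5Cre and 77.3 and 67.5 with no Cre stated. In Snf5-null TATCre libraries the highest were Meox1 at 118 and Tbx15 at 58.9, and in Snf5-null Myf5Cre libraries Meox2 at 10.9 and Six4 at 8.92. In combined TATCre libraries they were Msx1 at 48.7 and Tbx2 at 38, and in combined Myf5Cre libraries Meox2 at 94.5 and Irx3 at 25.6.

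Genes that work with the members, or are related to them, were counted in the same comparisons, beside the same shares of all genes as above. Of 18 partner genes (Pbx, Pknox, Ldb, Lmo, Eya, Dach and similar cofactors), all tested, 7 were higher and 2 lower in combined than Snf5-null tumours, 1 higher and 8 lower in combined than in SS18-SSX tumours, and none higher and 9 lower in Snf5-null than in SS18-SSX tumours. These comparisons called 29.1% of all genes higher and 20.5% lower, 23.1% and 21.9%, and 22.3% and 25.9%, in this order. The LIM-only factor Lmo1 was higher by 5.01 ± 0.72 and Eya1, a coactivator of sine oculis factors, by 4.85 ± 0.74 in combined than Snf5-null tumours (edgeR adjusted p = 2.64e-05 and 4.99e-05). Lmo3, another LIM-only factor, was lower by -9.23 ± 1.34 in Snf5-null (edgeR adjusted p = 2.94e-05) and by -5.87 ± 1.02 in combined than in SS18-SSX tumours (edgeR adjusted p = 0.000243). Of 36 further genes of the same families, 24 were tested, and 16 were higher and 2 lower in combined than Snf5-null tumours. In combined against SS18-SSX tumours 3 of these were higher and 8 lower, and in Snf5-null against SS18-SSX tumours 2 were higher and 15 lower. Isl1, a LIM-homeodomain factor of motor neurons, was higher by 8.27 ± 1.72 in combined than Snf5-null tumours (edgeR adjusted p = 0.0008). The neural factor Nkx6-2 was lower by -8.66 ± 1.21 in combined than in SS18-SSX tumours (edgeR adjusted p = 6.81e-05).

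The promoters of 36 of the 52 members, with 48 start sites, were found in RefSeq (GRCm38.p6). As examples, the 250 bases before the start are shown for Lhx1 and Msx1, lowest in Snf5-null tumours, for Six2, high in combined Myf5Cre tumours, and for Meox2, which went the other way from most members. They are written 5′ to 3′ on the gene's strand, and capitals mark each CG dinucleotide.
Lhx1: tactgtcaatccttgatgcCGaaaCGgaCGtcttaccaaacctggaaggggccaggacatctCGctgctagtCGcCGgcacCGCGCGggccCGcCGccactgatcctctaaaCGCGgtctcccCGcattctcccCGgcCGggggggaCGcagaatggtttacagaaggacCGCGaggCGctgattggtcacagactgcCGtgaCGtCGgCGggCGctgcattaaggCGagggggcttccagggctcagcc
Msx1: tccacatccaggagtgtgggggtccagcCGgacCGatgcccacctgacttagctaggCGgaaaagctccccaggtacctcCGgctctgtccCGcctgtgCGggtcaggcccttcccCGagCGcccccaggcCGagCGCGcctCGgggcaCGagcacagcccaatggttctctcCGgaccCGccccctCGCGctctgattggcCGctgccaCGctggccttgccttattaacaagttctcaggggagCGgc
Six2: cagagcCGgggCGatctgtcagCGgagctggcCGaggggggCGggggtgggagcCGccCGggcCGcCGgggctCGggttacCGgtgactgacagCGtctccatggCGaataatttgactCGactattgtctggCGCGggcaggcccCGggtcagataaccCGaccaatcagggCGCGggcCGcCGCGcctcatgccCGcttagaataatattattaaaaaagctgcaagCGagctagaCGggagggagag
Meox2: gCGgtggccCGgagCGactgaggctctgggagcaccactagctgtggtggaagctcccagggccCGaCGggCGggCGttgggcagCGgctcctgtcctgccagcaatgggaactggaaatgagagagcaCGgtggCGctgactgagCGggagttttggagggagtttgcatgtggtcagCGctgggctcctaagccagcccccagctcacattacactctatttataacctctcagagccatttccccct

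The window of Lhx1 is at chr11:84525535-84525784 (minus strand) with 26 CG and 64.8% G or C. The window of Msx1 is at chr5:37824586-37824835 (minus strand) with 20 CG and 68.0% G or C. The window of Six2 is at chr17:85688255-85688504 (minus strand) with 26 CG and 64.8% G or C. The window of Meox2 is at chr12:37108290-37108539 (plus strand) with 12 CG and 62.0% G or C. Over the 48 member starts the number of CG in 250 bases ran from 4 to 40 with a median of 14, beside a median of 6 over all 32851 starts. Of member starts 72.9% held 10 or more CG, and of all starts 37.8%. The 6-base motif TAATTA, the core bound by many homeodomains and the same on both strands, was in 6.25% of member starts (1 of Msx2 and 2 of Otx2) and in 4.84% of all starts. A match describes these letters only.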

How the data were processed

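RNA from 22 homogenised tumours was extracted with the RNeasy Mini kit and made into TruSeq Stranded mRNA libraries, per the labels' protocols. Tools in the submitters' processing notes, listed with no role or order, are STAR 2.7.5a, cutadapt, DESeq2, featureCounts and RSEM, with the mm10 build. The sources used here do not say whether counting used the strand. The authors deposited whole-number counts per Ensembl gene, not normalised, and 48058 of 48440 genes were matched to GENCODE annotation of GRCm38, the assembly of mm10.

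In R 4.3.3, edgeR 4.0.16 kept 18929 genes (by filterByExpr with a minimum count of 10 and a minimum total of 15, leaving 99.91% of counts) and scaled libraries by TMM. A single quasi-likelihood fit covered the 22 libraries in 6 groups, and was tested on simulated data. The simulated libraries shared the same mean per gene, apart from a small set changed equally up and down in combined tumours. The simulation therefore did not test scaling where many genes differ. Genotype comparisons set the mean of the pair of groups of 1 genotype against that of another. Calls are Benjamini-Hochberg adjusted p below 0.05 over all tested genes, and SE is the log2 fold change divided by the square root of F. Levels are TMM-scaled CPM computed from the deposited counts, and log2 CPM uses a prior count of 2. A group with no counts was set at 3 counts. Total counts of 8642648 to 25177722 set the precision, and 1 count is far below 1 CPM in every library.

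Every library was kept. Named with all values are the 6 tested members with the largest called change in each genotype comparison, the 3 with the largest in each other comparison and the widest-ranging member of each family (23 in all). Other members, partner genes, relatives and markers are summarised, and examples among them were chosen after their values were seen. The members and lists were chosen with earlier results of these data known. Alternatives were RLE scaling, no low-count filter, DESeq2 1.42.0, a model of 3 genotypes, each Cre label alone, summed library pairs and leaving out each library. The most alike libraries still differed beyond counting noise, and none were merged in the main fit. Libraries made separately from 1 tumour could differ so too, so this does not show that they came from separate tumours. Correlations of log2 CPM were 0.987 for Snf5-null Myf5Cre N31 and N33 and 0.984 for combined Myf5Cre N3 and N4. For N43L and N43R, which share a tag, the correlation was 0.982.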

Additional observations from a re-analysis of the deposited data

Results flagged for a closer look

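Within groups of 4 or 5 libraries, the highest or lowest log2 CPM of the 23 fully described members was compared with the others of its group by Dixon's ratio. Of 69 gene and group combinations, 13 held a library set apart. These genes were chosen for large changes or ranges in these data, and some libraries tie at 0 counts. The ratio's usual rate of about 1 in 20 groups therefore does not apply, and the 13 are a description only. Combined TATCre library 78777 was high for En2 (3.15 log2 CPM, others -1.24 to -1.03), Irx2 (3.41, others -2.07 to -1.92), Irx1 (4.89, others -1.24 to -0.34) and Pitx1 (6.87, others 0.72 to 0.94). Combined TATCre library 78774 was high for Meox2 (9.24, others 2.21 to 3.19) and Pax1 (0.93, others -3.12). Snf5-null TATCre library N49 was high for Nkx2-2 (1.01, others -3.12), Otx2 (-0.84, others -3.12 to -2.56) and Pax2 (1.47, others -3.12 to -2.23). Snf5-null TATCre library N1 was low for Meox1 (2.75, others 7.55 to 8.09), and N51 was low for En2 (-2.61, others -2.16 to -2.05), a difference of single counts. In combined Myf5Cre tumours N3 was low for Irx4 (2.84, others 3.78 to 3.89) and N1 for Meox2 (5.22, others 7.75 to 8.14).

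The Cre effect differed between combined and Snf5-null tumours by the edgeR interaction test for Six2 (9.19), Meis2 (8.66), Msx2 (-6.84) and En2 (-6.53), each in log2 units.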

How the results depend on the processing

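Of the calls, 7 of 29 in combined against Snf5-null, 9 of 22 in combined against SS18-SSX and 24 of 38 in Snf5-null against SS18-SSX tumours held under every alternative. A further 6, 1 and 1 held wherever a value was given, but had none in 1 alternative (too few counts with the Myf5Cre libraries alone for En1 and with the TATCre libraries alone for Irx4, Irx6, Lhx1, Lhx4 and Pax9, and no adjusted p from DESeq2 for Irx2). Of the calls, 23, 15 and 33 held in every fit that left out 1 library. Members higher in combined than Snf5-null tumours numbered 28, 7 with the TATCre libraries alone and 23 to 31 with 1 library left out. Over all genes 5509 of 18929 were higher, and with the TATCre libraries alone 1393 of 15952, in that comparison. Members lower there numbered 1, 2 with RLE scaling or DESeq2, 4 with 3 genotypes, 0 with the Myf5Cre libraries alone and 1 to 3 with 1 library left out. RLE scaling moved the median log2 fold change of all genes in that comparison from 0.23 to 0.12. Leaving out any 1 of the 6 SS18-SSX libraries, which do not enter that comparison, moved this median to 0.10. Of all genes called there, 58.7% were higher, and 48.2% to 49.3% in these fits. In Snf5-null against SS18-SSX tumours this share moved from 46.2% to between 53.9% and 55.7%. The shares of all genes set beside the members thus depend on the fit. Members higher in combined than in SS18-SSX tumours ranged from 3 to 6 with 1 library left out, and the lower ones from 15 to 21. Members higher in Snf5-null than in SS18-SSX tumours numbered 5 with 3 genotypes, 0 with the Myf5Cre libraries alone and 2 to 4 with 1 library left out, and the lower ones 32 to 36. Cre calls within Snf5-null tumours numbered 14 by DESeq2, 0 with N31 and N33 summed (chosen after seeing the data) and 0 to 11 with 1 library left out. Within combined tumours they numbered 11 by DESeq2 and 2 to 5 with 1 library left out. Interaction calls numbered 7 by DESeq2, 2 with N31 and N33 summed and 1 to 6 with 1 library left out. DESeq2 also called more of all genes. Within Snf5-null tumours it called 691 higher and 1548 lower of 20360, where edgeR called 337 and 603 of 18929. Within combined tumours these were 386 and 1087 of 19644, and 108 and 236 by edgeR. For the interaction they were 847 and 658 of 18938, and 249 and 209 by edgeR. With N31 and N33 summed, 74 and 50 of 19753 were called within Snf5-null tumours. Changes of sign were sought among called members and the fully described ones. They were listed only where the main fit or the alternative gave a call. In combined against Snf5-null tumours they were those of Meis2 (-1.95, TATCre alone) and Msx2 (-0.28, Myf5Cre alone). In combined against SS18-SSX tumours they were those of Pax1 (-2.80 without 78774, and up to 0.85 without SS18-SSX A) and Nkx6-1 (0.15, Myf5Cre alone). In Snf5-null against SS18-SSX tumours it was that of Meox1 (-0.18, Myf5Cre alone). Changes of sign with no call in either fit were not listed. The cause of the changes of sign was not tested. Fits with 1 Cre label also have fewer libraries. No paired analysis was possible because no pair of groups shares more than 1 library tag. Depth limits members near 0 counts, such as Nkx2-2, Pax9 and Otx1.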

Other observations

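Of the 8 pairs of members that are neighbours in the genome, with starts within 500 kb, 7 had both members tested. In the 3 genotype comparisons 3 pairs had the same calls and 4 had different ones. Dlx3 and Dlx4, Dlx5 and Dlx6, and Irx5 and Irx6 were each higher in combined than Snf5-null and lower in Snf5-null than SS18-SSX tumours, and combined and SS18-SSX tumours gave no call for them. The first of these calls was lost for Dlx3 and Dlx4 with each Cre label alone, at 1.55 and 3.39 with the Myf5Cre libraries (adjusted p = 0.256 and 0.101) and 3.09 and 3.29 with the TATCre libraries (adjusted p = 0.0857 and 0.104). Leaving out Snf5-null Myf5Cre library N31 or N33 also ended it for both (Dlx3 2.05 and 2.10, Dlx4 3.03 and 3.07), and leaving out combined Myf5Cre library N1 ended it for Dlx3 (1.91).

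The pairs with different calls were Dlx1 and Dlx2, Tbx2 and Tbx4, Tbx3 and Tbx5, and Pax1 and Nkx2-2. Between combined and Snf5-null tumours Dlx1 was at 1.74 ± 0.49 (edgeR adjusted p = 0.00689) and Dlx2 at 0.76 ± 0.49 (edgeR adjusted p = 0.206), and Dlx1 lost its call with each Cre label alone (1.75, adjusted p = 0.071, and 1.51, adjusted p = 0.124). Tbx2 was higher by 3.58 ± 0.56 and Tbx4 was at -0.73 ± 1.12. Differences between the genes of a pair were not tested.

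Of the 8 combined libraries, TATCre library 78777 was the highest for 19 of the 52 members, and the next, 78774, for 7. Of the 6 SS18-SSX libraries, A was the highest for 14 and N2 for 1. The same shares over all genes were not computed, so these counts are a description only.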
